A study of Mus musculus with 6 samples.

Results

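The 37 genes described here encode the glutamate receptors of the mouse brain and the auxiliary proteins that travel with them. They were chosen by name and not by any measured value, though with earlier results of these data known. All 37 were found among the 53715 gene entries of the count table. By role they are 4 AMPA receptor subunits, 5 kainate receptor subunits, 7 NMDA receptor subunits, 1 delta receptor, 7 metabotropic receptors, 6 transmembrane AMPA receptor regulatory proteins (TARPs), 5 other AMPA receptor auxiliaries, and 2 kainate receptor auxiliaries.

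RNA-Seq was done on whole cerebellum of male mice that were 4 weeks old, labelled C57BL/6 and bred from parent lines on a C57BL/6J background, with 3 control and 3 *Slc39a8*-NSKO mice. In *Slc39a8*-NSKO mice (slc39a8-KO in the labels), *Synapsin I-Cre* deletes floxed *Slc39a8*, which encodes a membrane transporter of zinc, iron, and manganese, from neurons, while glia and other cells keep the gene. The study names *Slc39a8* fl/fl mice as the controls of this cross and in places speaks of wild-type mice, and the control samples here are labelled WT. No treatment is given for either group. A legend of the study speaks of technical triplicates where its methods state separate mice, and if the former held, p values would measure only technical spread.

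Glutamate is the main excitatory transmitter of the cerebellum, and mossy fibers, parallel fibers, and climbing fibers all release it. AMPA receptors carry the fast current, NMDA receptors open only when the cell is already depolarized and admit calcium, kainate receptors act on both sides of the synapse, and metabotropic receptors signal through G proteins. Granule cells are known to exchange *Grin2b* for *Grin2a* and *Grin2c* as they mature, and Bergmann glia, which wrap the Purkinje cell synapses, are known for AMPA receptors built from *Gria1* and *Gria4* without *Gria2*. Since whole tissue was used, fewer cells of a type and less RNA per cell cannot be told apart in any value below.

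The question put to these genes was how the subunits rank in cerebellum and whether their RNA differs when neurons lack *Slc39a8*. Counts on genes ranged from 14431260 to 20844267 per mouse, with the lowest total in control mouse 2. On *Slc39a8* itself, control mice 1 to 3 held 99, 46, and 44 counts and *Slc39a8*-NSKO mice 1 to 3 held 38, 40, and 41. Scaled to library size, the *Slc39a8*-NSKO mean was 56.8% of control, which did not pass the threshold (log2 fold change −0.83, unadjusted p = 0.0036, adjusted p = 0.534 in edgeR's quasi-likelihood test). The study reported *Slc39a8* as lower in this cerebellum RNA-Seq. Defining markers of Purkinje cells, granule cells, and inhibitory interneurons summed to at least 6316, 1914, and 1525 counts per 1000000 in every mouse. *Atoh1*, which marks granule cell precursors, was at 0 in all 6. The 5 markers of proliferating precursors, *Atoh1* among them, summed to between 5.91 and 7.26 counts per 1000000 in control mice. In *Slc39a8*-NSKO mice these 5 summed to between 5.70 and 6.96. Each of 5 brainstem markers had at most 3 counts in every mouse.

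Because the study followed cAMP signaling in these mice, the promoters were searched for the site of the transcription factor CREB. RefSeq promoter windows (GRCm38.p6, 250 bases before to 50 bases after the transcription start) were given for 23 of the 37 genes, as 28 windows. The full site TGACGTCA was in 0 of these 28 and in 1.79% of all 32851 windows. The core of the site, TGACG, which is also part of the full site and was searched on both strands, was in 3 of the 28, those of *Grik2*, *Grin1*, and *Grm8*, and in 20.8% of all windows. The windows of *Grin1*, the subunit that every NMDA receptor needs, at chr2:25319138-25319437, and of *Grik2*, 1 of the 3 genes with an unadjusted p below 0.05 further on, at chr10:49788705-49789004, are printed 5′ to 3′ on the strand of the gene, which is the minus strand for both. Capitals mark this core as it reads on that strand, CGTCA.
Grin1: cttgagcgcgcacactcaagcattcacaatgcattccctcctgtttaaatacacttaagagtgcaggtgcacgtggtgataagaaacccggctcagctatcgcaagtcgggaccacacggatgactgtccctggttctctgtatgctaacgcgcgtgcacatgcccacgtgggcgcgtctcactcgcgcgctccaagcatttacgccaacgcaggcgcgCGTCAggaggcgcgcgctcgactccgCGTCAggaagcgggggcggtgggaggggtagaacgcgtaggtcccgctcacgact
Grik2: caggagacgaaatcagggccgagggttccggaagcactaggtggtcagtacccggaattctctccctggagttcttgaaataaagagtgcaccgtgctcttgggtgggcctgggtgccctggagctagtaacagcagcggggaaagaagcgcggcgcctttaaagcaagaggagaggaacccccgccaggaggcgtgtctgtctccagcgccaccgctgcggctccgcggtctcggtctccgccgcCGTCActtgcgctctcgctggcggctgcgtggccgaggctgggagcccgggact
The cores lay 31 and 5 bases before the start of *Grin1* and 4 bases before that of *Grik2*, and a match of letters is no evidence that the factor binds there.

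To rank genes against each other, counts were divided by the length of the merged exons of a gene and scaled to a sum of 1000000 per mouse, and this length-scaled level is used wherever genes are compared. The order was led by *Cacng7*, *Grm4*, *Gria1*, *Grin2c*, and *Gria4*, and these 5 held 63.9% of the summed level of all 37 in control mice. *Cacng7* stood first with a level of 535 in control mice, where it ranged from 529.8 to 539, and of 537 ± 29.8 (SD, n = 3) in *Slc39a8*-NSKO mice. *Grm4* followed with 316 ± 7.20 and 306 ± 22.9. Next came *Gria1* at 271 ± 36.4, *Grin2c* at 267 ± 27.3, and *Gria4* at 236 ± 23.9 in control mice, whose ranges overlapped from each gene to the next, so that their order is not settled by 3 mice. Of the 37, 21 lay above the median of all genes tested, which was 14.8.

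At the other end of the order, *Neto1* had a level of 0.631 ± 0.0316, *Grm8* of 1.57 ± 0.211, and *Grm5* of 2.12 ± 0.160 in control mice. *Grm6*, the receptor of retinal ON bipolar cells, had 1 count in control mouse 1, 1 count in *Slc39a8*-NSKO mouse 1, and 0 counts in the others, where 0 allows up to 3 counts, and it was removed by the filter on low counts. Of the 36 pairs of neighbors in the order, 16 overlapped in their control ranges. The rank was the same in both genotypes for 23 of 37 genes and moved by at most 3 places for any gene. Other definitions of gene length moved a gene by up to 5 places. The same 5 genes led, but the gap below them rests on merged exons. With the longest transcript, *Grin1* was at 216, against 219 for *Gria4* and 220 for *Grin2c* in control mice. With the principal transcript, *Shisa6* was at 193 and *Grin1* at 192, against 194 for *Grin2c*.

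**Figure D1:**
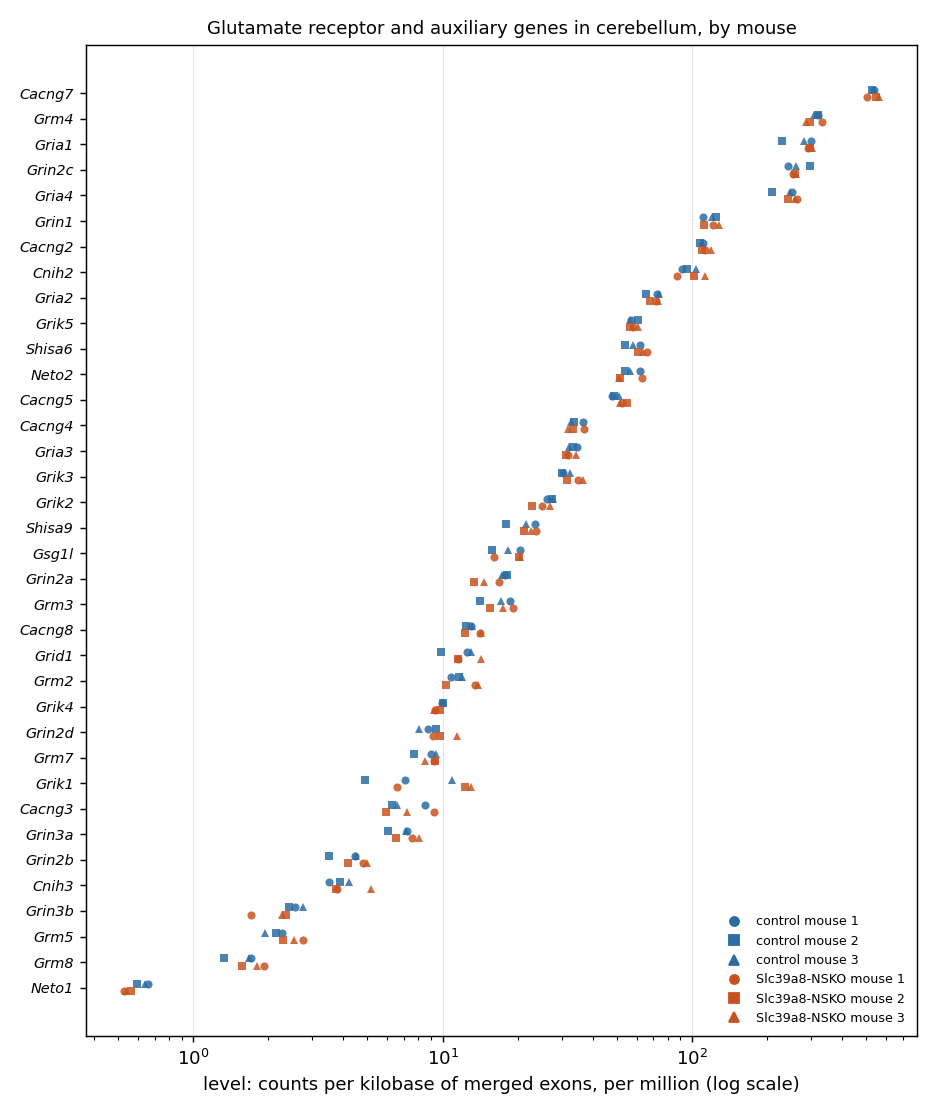
Length-scaled level of each gene in each mouse, as counts per kilobase of merged exons scaled to a sum of 1000000, on a log axis, with genes ordered by the control mean, control mice in blue and *Slc39a8*-NSKO mice in orange. *Cacng7* leads at 535 in control mice and *Neto1* is last at 0.631, and *Grm6*, with at most 1 count in a mouse, is not drawn.

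Counts per 1000000 normalised counts (CPM) were used to compare a gene between mice. Between the genotypes, 0 of the 36 genes tested had an adjusted p below 0.05 in edgeR's quasi-likelihood test, where 16 of all 16330 genes passed (0.098%). DESeq2 and limma-voom also called 0 of the 36. An unadjusted p below 0.05 was found for 3 of the 36 (8.33%), against 5.39% of all genes. *Grin2a* and *Grik2* were the lower 2 (3.14% of all genes were lower at this p) and *Grik3* the higher 1 (2.25% of all genes were higher). With DESeq2 2 and with limma-voom 2 had such a p. The lowest adjusted p was that of *Grin2a*, 0.462 in edgeR's test.

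The 3 mice of each genotype did not overlap in CPM for 6 of the 36 (16.7%), against 10.3% of all genes. Of these, *Grin2a*, *Grin3b*, and *Neto1* were lower and *Grm5*, *Cacng2*, and *Shisa6* were higher in *Slc39a8*-NSKO mice. The log2 fold changes ranged from −0.29 for *Grin3b* to 0.46 for *Grik1*, with 23 above 0 and 13 below 0 and a median of 0.04, where the median of all genes tested was 0.00. A change of 1.5-fold in either direction lay outside the 95% interval for 33 of the 36 (91.7%), compared with 73.8% of all genes. Intervals are wider at low counts, and these shares were not matched for level, so they do not compare stability. *Grik1*, *Grin3b*, and *Neto1* were the 3 whose intervals reached it.

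**Figure D2:**
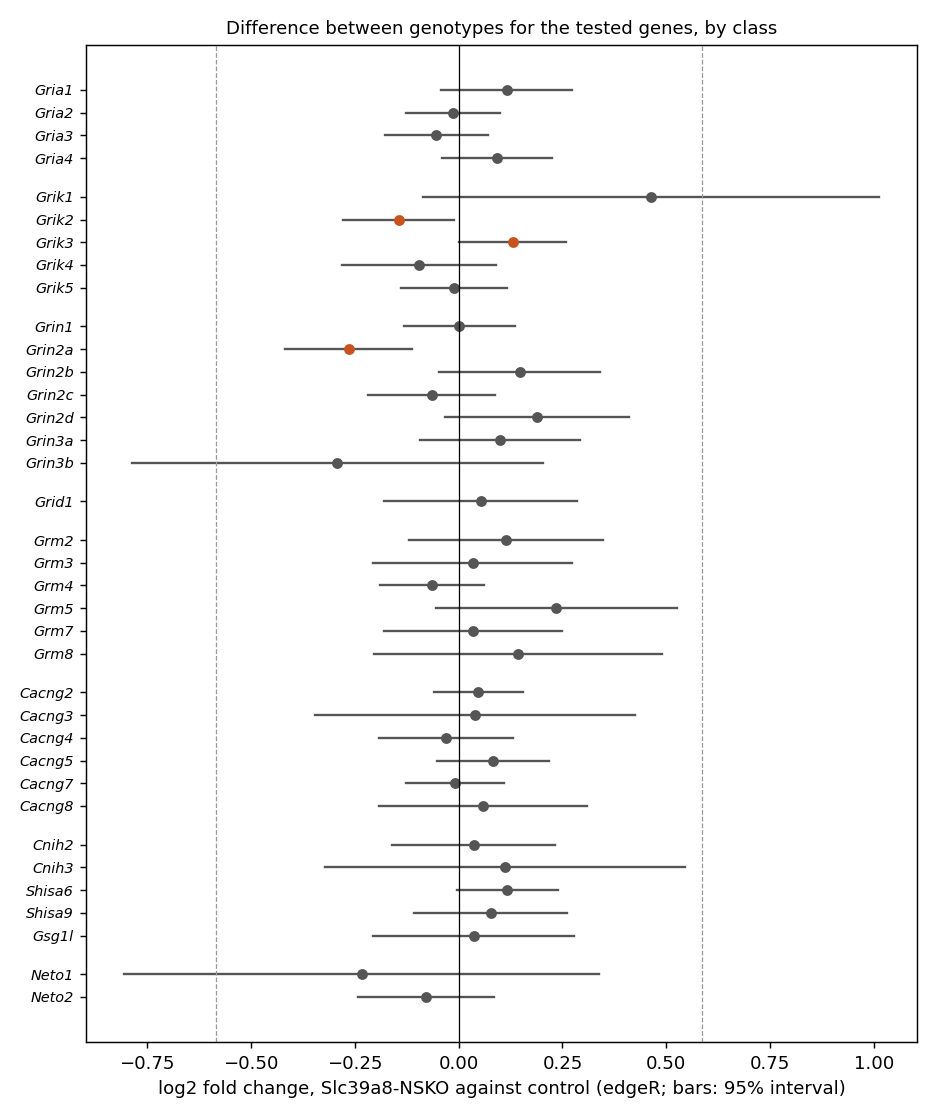
Log2 fold change of *Slc39a8*-NSKO against control mice for the 36 genes tested, by class, with bars for the 95% interval from edgeR, dashed lines at 1.5-fold, and orange points for an unadjusted p below 0.05. Most intervals cross 0, that of *Grin2a* lies below 0, and those of *Grik1*, *Grin3b*, and *Neto1* reach past a dashed line.

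AMPA receptors are tetramers of the products of *Gria1* to *Gria4*, and *Gria2* makes them impermeable to calcium. In control mice *Gria1* held 44.2% ± 1.36 (SD, n = 3) of the summed level of the 4 genes, *Gria4* 38.7% ± 0.363, *Gria2* 11.6% ± 0.593, and *Gria3* 5.50% ± 0.606. *Gria1* (chr11:57011387-57330244, plus strand, GRCm38) had 544, 428, and 510 CPM in control mice 1 to 3 against 520, 547, and 540 in *Slc39a8*-NSKO mice 1 to 3. Control mouse 2 was the lowest, and the 2 other control mice lay among or close to the *Slc39a8*-NSKO mice, so that the genotypes overlapped. The log2 fold change of *Gria1* was 0.12 (SE 0.0732, adjusted p = 0.993 in edgeR's test). It was 0.02 when control mouse 2 was left out.

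*Gria4* was close to *Gria1* in level, with 477, 405, and 467 in control against 489, 468, and 481 CPM in *Slc39a8*-NSKO mice. Control mouse 2 was again the lowest, and *Gria4* had a log2 fold change of 0.09 (SE 0.0619, adjusted p = 0.994 in edgeR's test). The length-scaled levels of *Gria2* were 70.7 ± 4.51 in control and 70.9 ± 2.72 in *Slc39a8*-NSKO mice, and those of *Gria3* were 33.4 ± 1.24 and 32.6 ± 1.62. Both lay within the spread between mice. The summed level of the 4 genes ranged from 538 to 660 in control and from 639 to 667 in *Slc39a8*-NSKO mice.

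Bergmann glia, known to use *Gria1* and *Gria4*, share a marker list here with astrocytes, so that the list does not single them out. The 5 genes of this list summed to between 1004 and 1180 CPM in control mice and to between 1236 and 1316 in *Slc39a8*-NSKO mice, without overlap. Of the 5, 3 had an unadjusted p below 0.05 (60%, against 5.39% of all genes), all higher. The other 2, *Gdf10* and *Aldh1l1*, had no such p, and the lowest log2 fold change of the 5 was 0.06. *Gfap*, a filament protein of astrocytes, had a log2 fold change of 0.40 (SE 0.0971, adjusted p = 0.301 in edgeR's test), *Aqp4*, the water channel of their end feet, of 0.20, and *Gja1*, a gap junction protein, of 0.18. None of the 3 passed the threshold. The part of glia in the values of *Gria1* and *Gria4* was not tested.

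Kainate receptors combine *Grik1* to *Grik3* products with the high-affinity subunits from *Grik4* and *Grik5*. *Grik5* (chr7:25009849-25072346, minus strand) led the class with 43.4% ± 2.28 of its summed level in control mice. It had 88.0, 97.1, and 87.6 CPM in control mice 1 to 3 against 88.5, 89.1, and 92.8 in *Slc39a8*-NSKO mice 1 to 3. The genotypes overlapped, with control mouse 2 the highest (log2 fold change −0.01, SE 0.0592, adjusted p = 0.997 in edgeR's test).

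*Grik2* (chr10:49094833-49788766, minus strand), a subunit of granule cells, had 104, 112, and 110.3 CPM in control against 97.5, 92.2, and 106 in *Slc39a8*-NSKO mice. *Slc39a8*-NSKO mouse 3 lay above control mouse 1, so that the genotypes overlapped by this pair. *Grik2* had a log2 fold change of −0.14 (SE 0.0619, unadjusted p = 0.0358, adjusted p = 0.908 in edgeR's test), with a 95% interval of 0.825-fold to 0.992-fold. *Grik3* (chr4:125490700-125714173, plus strand) differed in the other direction, with 82.0, 83.5, and 86.9 in control against 92.5, 86.5, and 97.1 in *Slc39a8*-NSKO mice. Here *Slc39a8*-NSKO mouse 2 lay just below control mouse 3. *Grik3* had a log2 fold change of 0.13 (SE 0.0599, unadjusted p = 0.0481, adjusted p = 0.916 in edgeR's test). Neither gene passed the threshold.

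*Grik1* was the most variable of the 36 genes between mice of 1 genotype. Its CPM were 14.2, 10.1, and 22.0 in control against 13.0, 25.2, and 25.9 in *Slc39a8*-NSKO mice. *Slc39a8*-NSKO mouse 1 lay between control mice 1 and 2, while the other 2 of its group were above every control mouse. Its log2 fold change was 0.46 with an SE of 0.255 (adjusted p = 0.969 in edgeR's test), and it ranged from 0.25 without control mouse 2 to 0.79 without control mouse 3. When genes with low counts were kept in the fit, the adjusted p of *Grik1* was 0.0014 at nearly the same log2 fold change, 0.47, with an SE of 0.103. *Grik1* is singled out here after its values were seen. *Grik4* had length-scaled levels of 10.01 ± 0.0721 in control and 9.48 ± 0.270 in *Slc39a8*-NSKO mice, and its log2 fold change was −0.09 (SE 0.0862).

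NMDA receptors pair the *Grin1* product with those of the *Grin2* or *Grin3* genes. *Grin2c* (chr11:115249169-115267243, minus strand), the subunit of mature granule cells, led the class with 62.6% ± 1.49 of the summed level of the 7 genes in control mice, followed by *Grin1* with 27.9% ± 0.766 and *Grin2a* with 4.18% ± 0.295. The gap between the first and second of these rests on the length used, since the merged exons of *Grin1* cover 9700 bases and its longest transcript 4276. With the longest transcript in place of merged exons, the control means were 220 for *Grin2c* and 216 for *Grin1*, and the order was not settled. By share of the class, *Grin1* then exceeded *Grin2c* in control mice 1 and 3 and in the *Slc39a8*-NSKO mean (46.4% against 45.2%). *Grin2c* had 367, 460, and 394 CPM in control against 379, 399, and 389 in *Slc39a8*-NSKO mice. Control mouse 2 was the highest and control mouse 1 the lowest of all 6, with the *Slc39a8*-NSKO mice between them (log2 fold change −0.07, SE 0.0709, adjusted p = 0.994 in edgeR's test).

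*Grin1* had 322, 373, and 349.9 CPM in control against 347, 331, and 368 in *Slc39a8*-NSKO mice. All 3 *Slc39a8*-NSKO mice lay within the control range. Its log2 fold change was 0.00 (SE 0.0619), and the 95% interval ran from 0.913-fold to 1.10-fold. An antisense gene, *Grin1os*, shares 1307 exon bases with *Grin1* on the other strand and had a mean of 110 counts, against 6300 counts for *Grin1*.

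*Grin2a* (chr16:9567898-9995560, minus strand), whose product gives faster NMDA currents than that of *Grin2b*, had the lowest p of the 36. It had 95.7, 100.1, and 92.8 CPM in control mice 1 to 3 against 88.9, 73.3, and 77.9 in *Slc39a8*-NSKO mice 1 to 3. All 3 *Slc39a8*-NSKO mice lay below all 3 control mice, with a narrow gap between *Slc39a8*-NSKO mouse 1 and control mouse 3. The means were 96.2 ± 3.70 (SD, n = 3) and 80.0 ± 8.04 (SD, n = 3). The log2 fold change was −0.26 (SE 0.0711, unadjusted p = 0.0024, adjusted p = 0.462 in edgeR's test), and the 95% interval ran from 0.749-fold to 0.925-fold. Leaving out any 1 mouse kept the log2 fold change between −0.35 and −0.20 and the adjusted p between 0.118 and 0.995. Only with genes of low counts kept in the fit did *Grin2a* pass, among the 13 alternatives run, with an adjusted p of 0.0178. The estimated counts of *Grin2a* were not all whole numbers, as happens when reads fit more than 1 gene.

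Forebrain tissue is rich in *Grin2a*, so the forebrain markers are given beside it. Their 5 genes summed to between 7.44 and 9.22 CPM in control and to between 6.46 and 7.12 in *Slc39a8*-NSKO mice, without overlap. *Neurod6*, a factor of cortical neurons, was the 1 with an unadjusted p below 0.05, with a log2 fold change of −0.47 (SE 0.149, adjusted p = 0.678 in edgeR's test). Of the 3 forebrain markers tested, 2 had a log2 fold change above 0, among them *Tbr1* at 0.21 with a large error (SE 0.486). The part of such tissue in the value of *Grin2a* was not tested.

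The other NMDA receptor genes were low. *Grin2b*, the subunit of immature neurons, had length-scaled levels of 4.15 ± 0.552 in control and 4.66 ± 0.422 in *Slc39a8*-NSKO mice, *Grin2d* of 8.76 ± 0.664 and 10.1 ± 1.17, and *Grin3a* of 6.77 ± 0.649 and 7.36 ± 0.802. None of them passed the test, with log2 fold changes of 0.15, 0.19, and 0.10. *Grin3b* had 2.51, 2.43, and 2.70 CPM in control against 1.65, 2.36, and 2.23 in *Slc39a8*-NSKO mice. The genotypes did not overlap, and *Slc39a8*-NSKO mouse 1 was the lowest (log2 fold change −0.29, SE 0.230, adjusted p = 0.994 in edgeR's test). *Grin3b* shares 1059 exon bases with *Tmem259* on the other strand, whose mean of 2794 counts compares with 41.9 for *Grin3b*, and its estimates were not whole in any mouse, so that its counts are uncertain.

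**Figure D3:**
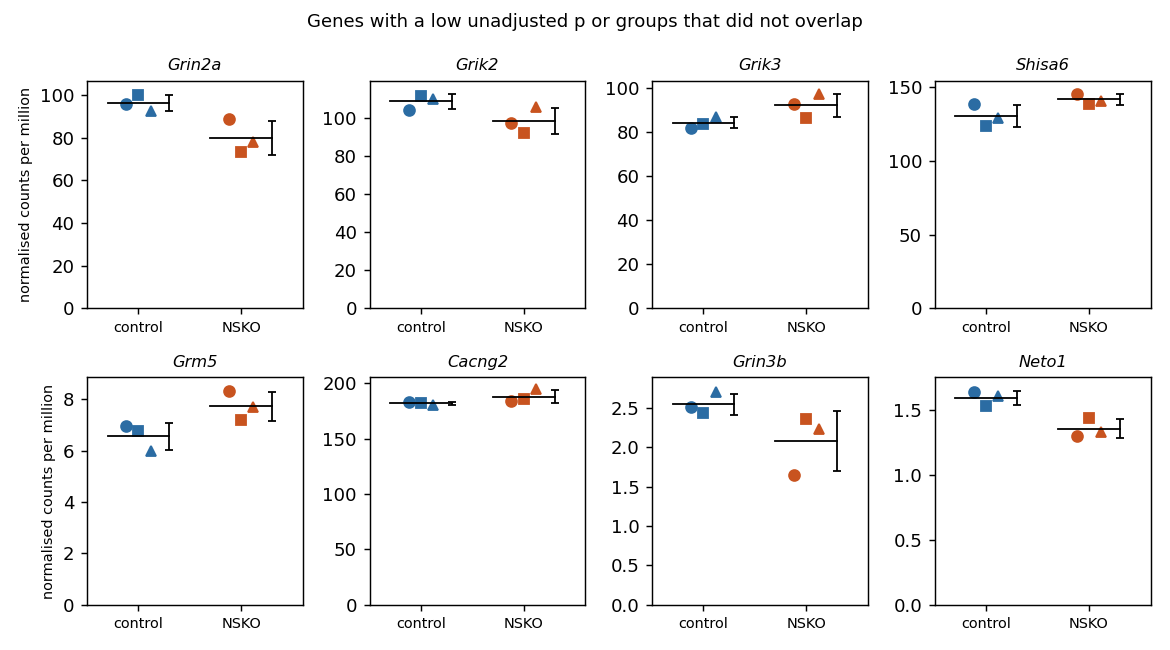
CPM in each mouse for the genes with an unadjusted p below 0.05 or with genotypes that did not overlap, where horizontal lines mark the mean and bars the SD of 3 mice, and each axis starts at 0. *Grin2a* is lower in all 3 *Slc39a8*-NSKO mice, at 73.3 to 88.9 against 92.8 to 100.1, while *Grik2* and *Grik3* overlap by 1 pair of mice.

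*Grid1*, the delta receptor that binds cerebellins rather than opening to glutamate, had 22.3, 18.1, and 23.1 CPM in control against 20.2, 20.9, and 25.1 in *Slc39a8*-NSKO mice. Control mouse 2 was the lowest and *Slc39a8*-NSKO mouse 3 the highest, and the genotypes overlapped (log2 fold change 0.05, SE 0.108, adjusted p = 0.994 in edgeR's test).

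Among the 7 metabotropic receptors, *Grm4* (chr17:27422387-27521403, minus strand), which restrains release from the parallel fibers of granule cells, held 88.6% ± 0.909 of the summed level in control mice. It had 572, 590.3, and 551 CPM in control against 585, 545, and 509 in *Slc39a8*-NSKO mice. *Slc39a8*-NSKO mouse 1 lay within the control range and the other 2 below it. For *Grm4* the log2 fold change was −0.06 (SE 0.0579, adjusted p = 0.994 in edgeR's test), with a 95% interval of 0.877-fold to 1.04-fold. *Grm5*, which couples to calcium release and is sparse in adult cerebellum, had 6.95, 6.75, and 5.98 in control against 8.31, 7.19, and 7.70 in *Slc39a8*-NSKO mice. Every *Slc39a8*-NSKO mouse was above every control mouse, but the difference did not pass the test (log2 fold change 0.24, SE 0.135, unadjusted p = 0.103, adjusted p = 0.974 in edgeR's test).

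The length-scaled levels of *Grm3*, a receptor of glia as well as neurons, were 16.7 ± 2.27 in control and 17.3 ± 1.86 in *Slc39a8*-NSKO mice. *Grm2*, known from Golgi cells and unipolar brush cells, had levels of 11.5 ± 0.593 and 12.6 ± 1.96, *Grm7* of 8.69 ± 0.895 and 9.01 ± 0.433, and *Grm8* of 1.57 ± 0.211 and 1.76 ± 0.182. Each of these 4 overlapped between the genotypes. The log2 fold change was highest for *Grm8*, at 0.14 with an SE of 0.161.

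Stargazin, the product of *Cacng2*, is the TARP that granule cells depend on, and it brings AMPA receptors to the membrane and slows their closing. *Cacng7* (chr7:3332955-3368221, plus strand) held 71.5% ± 0.212 of the summed level of the 6 genes in control mice and *Cacng2* 14.6% ± 0.0530. *Cacng7* had 394, 398, and 391 CPM in control against 363, 407, and 406 in *Slc39a8*-NSKO mice. The 3 control mice were close together, and *Slc39a8*-NSKO mice lay on both sides of them (log2 fold change −0.01, SE 0.055, adjusted p = 0.997 in edgeR's test). *Cacng2* had 183, 182, and 181 in control against 184, 185, and 195 in *Slc39a8*-NSKO mice. The genotypes did not overlap, but the gap between them was small, and the log2 fold change was 0.05 (SE 0.050, adjusted p = 0.994 in edgeR's test). *Cacng2* shares 323 exon bases with the antisense gene *A730060N03Rik*.

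*Cacng5* had length-scaled levels of 49.3 ± 1.54 in control and 52.7 ± 1.75 in *Slc39a8*-NSKO mice, and *Cacng4* of 34.3 ± 1.92 and 34.0 ± 2.66. *Cacng8* and *Cacng3*, which are TARPs of the forebrain, were lower, with levels of 12.9 ± 0.363 and 7.10 ± 1.19 in control mice. No TARP had an unadjusted p below 0.05, and the log2 fold changes of the 6 ranged from −0.03 to 0.08.

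Of the 5 other AMPA receptor auxiliaries, *Cnih2* (chr19:5092868-5098521, minus strand), a cornichon that escorts receptors out of the endoplasmic reticulum, was the highest per length of merged exons, with 49.1% ± 3.06 of the summed level in control mice. It had 37.5, 40.3, and 42.7 CPM in control against 35.2, 42.6, and 45.6 in *Slc39a8*-NSKO mice. The lowest and the highest of these were both *Slc39a8*-NSKO mice (log2 fold change 0.04, SE 0.0911, adjusted p = 0.994 in edgeR's test). *Shisa6*, which keeps AMPA receptors at the postsynaptic density, stood second with 29.2% ± 1.41. That order turned with the length of the principal transcript, which put *Shisa6* at a level of 193 and *Cnih2* at 69.9.

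*Shisa6* had 138, 124, and 129 CPM in control against 145, 139, and 140.1 in *Slc39a8*-NSKO mice. Every *Slc39a8*-NSKO mouse was above every control mouse, with control mouse 1 close behind. The log2 fold change was 0.12 (SE 0.0564, unadjusted p = 0.0565, adjusted p = 0.926 in edgeR's test). *Shisa9* had length-scaled levels of 21.0 ± 2.85 in control and 22.5 ± 1.18 in *Slc39a8*-NSKO mice, *Gsg1l* of 18.2 ± 2.26 and 18.9 ± 2.50, and *Cnih3* of 3.86 ± 0.348 and 4.22 ± 0.815. The log2 fold changes of the 5 genes were all above 0, between 0.04 and 0.12, and none passed the test.

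The kainate receptor auxiliaries were unequal in level, with *Neto2* (chr8:85636588-85700924, minus strand) at 98.9% ± 0.0377 of the sum of both genes in control mice. *Neto2* had 114, 101, and 104 CPM in control against 114, 96.6, and 92.5 in *Slc39a8*-NSKO mice. Mouse 1 was the highest in each genotype, and the genotypes overlapped (log2 fold change −0.08, SE 0.0763, adjusted p = 0.994 in edgeR's test). *Neto1* was counted 34, 22, and 25 times in control mice and 26, 28, and 25 times in *Slc39a8*-NSKO mice, which is 1.64, 1.53, and 1.61 CPM against 1.302, 1.44, and 1.33 CPM. Scaled to library size, every *Slc39a8*-NSKO mouse was lower, but at this depth the 95% interval ran from 0.572-fold to 1.26-fold (log2 fold change −0.23, SE 0.265).

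Ratios of subunits within a mouse do not depend on library size, and 5 were compared by two-sided exact permutation tests, whose smallest p with 3 mice in each group is 0.1. The log2 ratio of *Grin2a* to *Grin2b* was 2.01, 2.37, and 1.94 in control against 1.80, 1.68, and 1.56 in *Slc39a8*-NSKO mice. All *Slc39a8*-NSKO mice were lower, by a mean of −0.43 (exact permutation p = 0.1, adjusted p = 0.25 over the 5 ratios). Leaving out 1 mouse moved this difference to between −0.51 (without control mouse 3) and −0.29 (without control mouse 2). The ratio of *Gria4* to *Gria2* was 1.80, 1.67, and 1.74 in control against 1.88, 1.84, and 1.82 in *Slc39a8*-NSKO mice on the log2 scale. Here all *Slc39a8*-NSKO mice were higher, by 0.11 (exact permutation p = 0.1, adjusted p = 0.25). The difference was 0.08 without control mouse 2 and 0.14 without control mouse 1. For both ratios the exact permutation p was 0.1 or 0.2 when a mouse was left out.

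The other 3 ratios overlapped between the genotypes. *Grin2c* exceeded *Grin2b* by a mean log2 ratio of 6.01 ± 0.339 (SD, n = 3) in control and 5.80 ± 0.135 in *Slc39a8*-NSKO mice (exact permutation p = 0.5), or 64.6-fold and 55.6-fold. The log2 ratio of *Gria1* to *Gria2* was 1.93 ± 0.118 and 2.07 ± 0.0531 (exact permutation p = 0.3), and that of *Cacng7* to *Cacng2* was 2.29 ± 0.0094 and 2.23 ± 0.0764 (exact permutation p = 0.4). Single mice also moved these 3 differences. Without control mouse 2, that of *Grin2c* to *Grin2b* went from −0.22 to −0.02 and that of *Gria1* to *Gria2* from 0.14 to 0.08, and that of *Cacng7* to *Cacng2* went from −0.06 to −0.02 without *Slc39a8*-NSKO mouse 1 and to −0.10 without *Slc39a8*-NSKO mouse 2. The size of a ratio depends on the length taken for each gene, but the difference between genotypes does not.

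**Figure D4:**
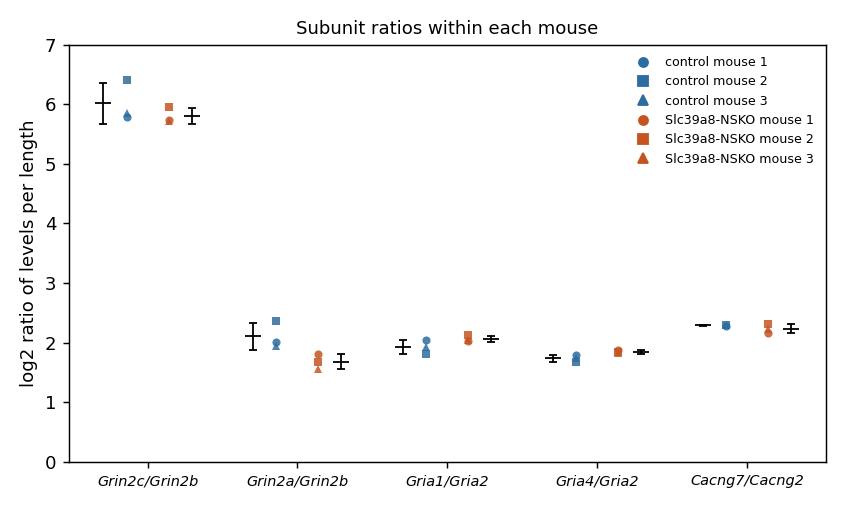
Log2 ratio of the length-scaled levels of a pair of subunits in each mouse, with the mean and SD of 3 mice beside the points. *Grin2a*/*Grin2b* is lower in all 3 *Slc39a8*-NSKO mice, with means of 2.11 in control and 1.68, and *Gria4*/*Gria2* is higher, with means of 1.74 and 1.85, while the other ratios overlap.

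The rest of the glutamate synapse was read from a list of 58 other genes, of which 56 were tested, 0 had an adjusted p below 0.05 in edgeR's test, and 2 had an unadjusted p below 0.05 (3.57%, against 5.39% of all genes). DESeq2 and limma-voom also called 0 of them.

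By group, an unadjusted p below 0.05 was found for 0 of 20 scaffold and trafficking genes and 0 of 12 synaptic organizers tested. With 5.39% of all genes at such a p, groups this small can hold none without differing from that share. The median log2 fold change over the 56 was 0.04, and 53 of the 56 intervals (94.6%, against 73.8% of all genes) left out a change of 1.5-fold. Here too the shares were not matched for level.

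Markers of cell types were read in the same way. The 5 microglial markers summed to between 66.1 and 74.6 CPM in control and to between 77.5 and 81.3 in *Slc39a8*-NSKO mice, without overlap, and *Csf1r* was the 1 of the 5 with an unadjusted p below 0.05 (log2 fold change 0.25, SE 0.0799). The sums overlapped between the genotypes for Purkinje cells, granule cells, granule cell precursors, inhibitory interneurons, unipolar brush cells, oligodendrocytes and their precursors, endothelial cells, choroid plexus, and brainstem. Among these, *Itpr1* of Purkinje cells was higher (log2 fold change 0.21), *Eomes* of unipolar brush cells was lower (−0.63), and *Kl* and *Folr1* of the choroid plexus were higher (0.42 and 0.96) at an unadjusted p below 0.05, and none of these 4 passed the threshold. The part of these cell types in the values of the receptor genes was not tested. Control mouse 2 held the lowest value for 12 of the 36 receptor and auxiliary genes and *Slc39a8*-NSKO mouse 3 the highest for 11.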

How the data were processed

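Total RNA from cerebellum was turned into cDNA from oligo-dT primers, and the paired-end reads were aligned to the mouse genome by STAR. The expected counts per gene and mouse deposited by the authors, which per the labels' processing notes came from RSEM with build mm10, are not scaled to library size or gene length. Tool versions are not given in the sources used here. The labels name a directional library kit and the methods a kit without that word, so that the strand setting is unknown and overlapping antisense genes cannot be told apart with certainty.

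The 92 spike-in entries, with at most 5 counts in a mouse, were left out. Counts were rounded and tested with edgeR 4.0.16 in R 4.3.3 (quasi-likelihood test, TMM, filterByExpr, no covariate), with Benjamini-Hochberg adjustment over 16330 genes and a threshold of 0.05. CPM values, counts per 1000000, use the TMM library sizes. Length-scaled levels used GENCODE exon lengths on GRCm38, and all coordinates outside the promoter windows are from that annotation. DESeq2 1.42.0 and limma-voom (limma 3.58.1) were among 13 alternative fits. The principal transcript length was chosen after seeing the data. Fold intervals are at 95%, and a count of 0 allows up to 3 counts (counting error only). Libraries differed by more than sampling noise (chi-square per degree of freedom 4.01 to 9.63 over all pairs).

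The 37 genes, the list of 58 synapse genes, and the markers were chosen with earlier results of these data known. Genes given mouse by mouse were the highest per length in each class and those with an unadjusted p below 0.05 or without overlap. Of the other lists, those with an unadjusted p below 0.05 were named, except for some genes that are not reported here. *Grin1*, *Gria4*, *Grik1*, *Tbr1*, *Tmem259*, *A730060N03Rik*, and *Grin1os* were added after their values were seen.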

Additional observations from a re-analysis of the deposited data

How the results depend on the processing

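Against 16 genes in the main test, 37 of all genes passed with DESeq2, 178 with no filter on low counts, 41 with the replicate number as a block, and between 9 (without *Slc39a8*-NSKO mouse 2) and 38 (without control mouse 1) when a mouse was left out. Of the receptor and auxiliary genes, 2 passed with no filter, *Grin2a* (log2 fold change −0.26, adjusted p = 0.0178 in edgeR's test) and *Grik1* (0.47, adjusted p = 0.0014), and 0 passed in each of the other fits. With no filter, 37 of the genes were fitted and 6 had an unadjusted p below 0.05. Of the other synapse genes, 0 passed in any of the 13 fits.

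Deviations from the group means correlated at 0.142, 0.116, and 0.0104 for mice with the same replicate number, 1 to 3. Over mice with different numbers the correlations ran from −0.177 to 0.0665. Numbers 1 and 2 thus gave the highest values, while control mouse 3 correlated best with another number (0.0355). These values do not settle whether the numbers mark pairs. A block on the replicate number gave an adjusted p of 0.248 for *Grin2a* in edgeR's test and changed no call among the 37 genes. With it, 6 of the 36 tested had an unadjusted p below 0.05, against 3 in the main test.

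Of the genes given mouse by mouse and refitted under each alternative, 5 turned in direction, each when a mouse was left out, over log2 ranges of −0.0347 to 0.0375 for *Grik5*, −0.13 to 0.0318 for *Grin2c*, −0.0463 to 0.12 for *Grid1*, −0.0375 to 0.0452 for *Cacng7*, and −0.0436 to 0.14 for *Cnih2*, none of which passed the test.

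With the longest transcript as gene length, the class shares in control mice were 39.9% for *Gria1*, 46.2% for *Grin2c*, 89.8% for *Grm4*, 73.0% for *Cacng7*, and 99.0% for *Neto2*. With the principal transcript they were 40.3%, 46.0%, 89.6%, 73.0%, and 99.5%, and 46.1% for *Grik5* and 23.3% for *Cnih2*. Leaving out a control mouse moved no share beyond its spread. Low counts limit *Neto1*, *Grin3b*, *Cnih3*, and *Grm6* most.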
